A study of Mus musculus with 14 samples.

Results

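The 39 genes described here are expressed by macrophages and their monocyte precursors. They were chosen by name, with earlier results of these data known, so the number that changed is a description of this choice. Each was read from 1 probe set, the one with the highest mean over the arrays among the probe sets annotated to that gene alone. All 39 were measured, out of 19937 genes on the array. Expression had been measured in the left ventricle of male mice, with 1 array per mouse, 3 weeks after aortic banding (AB), in which a ligature around the ascending aorta loads the left ventricle with pressure, or after a Sham operation without the constriction. The 14 arrays were from CXCR5-/- AB (n = 4), CXCR5-/- Sham (n = 3), WT AB (n = 4) and WT Sham (n = 3) mice. CXCR5-/- mice lack CXCR5, the chemokine receptor for CXCL13. Their allele was made in 129-derived embryonic stem cells by putting a neomycin resistance gene in place of the coding region, and was backcrossed for 8 generations to C57BL/6, the strain of the WT mice. Neither the labels nor the methods used here give the age of the mice.

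Macrophages of the heart come from 2 sources. Resident macrophages settle before birth, renew themselves in place and take up dying cells and debris; in the mouse they are marked by Lyve1, Folr2, Timd4 and Cd163. Recruited macrophages derive from blood monocytes, which carry the chemokine receptor Ccr2 and enter the heart when it is injured or loaded. Most of the other genes in the group, such as those for Fc receptors, β2 integrins and lysosomal proteases, are used by both kinds of cell.

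All values are log2 intensities from the robust multi-array average (RMA) as deposited, so a difference of 1 is a doubling, and levels of different probe sets cannot be set against each other. Array medians lay between 5.19 and 5.30, correlations between arrays between 0.975 and 0.993, and every array had high levels of ventricular cardiomyocyte markers, with a mean over 8 of them of 11.72 to 11.96. Single markers moved with AB: Myh7, the fetal myosin heavy chain, rose in both genotypes, Ryr2 fell in both, and Myh6 and Tnni3 fell in CXCR5-/- hearts. The probe set of Cxcr5 read 3.85 to 4.47 on the 7 arrays labelled CXCR5-/- and 3.03 to 3.30 on the 7 WT arrays, so it was higher where the gene was targeted. Its position relative to the deleted coding region is unknown here, and its level therefore does not check the genotype labels. Myl7, the myosin light chain of atrial muscle, read 9.68 and 8.82 on CXCR5-/- Sham replicates 1 and 2 and 9.09 on WT Sham replicate 1, while the remaining 11 arrays ran from 5.65 to 7.49, although the atria had been removed. Calls that changed without these 3 Sham arrays are named beside the genes, from a fit that has 1 CXCR5-/- Sham array left. In tissue RNA, fewer cells of a type and less RNA per cell cannot be told apart.

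AB raised macrophage genes of most roles in both genotypes, Ccr2 among them, while none of the 4 resident markers passed the test. In CXCR5-/- hearts 28 of the 39 genes were higher after AB than after Sham and 0 were lower (limma, Benjamini-Hochberg adjusted p under 0.05 over all genes). In the same comparison 8.28% of all genes were higher and 5.86% were lower. In WT hearts 19 of the 39 were higher and 0 were lower, where 5.1% of all genes were higher and 4.22% were lower. All 19 genes called in WT hearts were also called in CXCR5-/- hearts, and the 9 called in CXCR5-/- hearts alone had WT differences of 0.15 to 0.42 in the same direction (adjusted p 0.0558 to 0.460). At an unadjusted p under 0.05 there were 33 of the 39 in CXCR5-/- and 27 in WT hearts, beside 25.3% of all genes in CXCR5-/- and 21.1% in WT hearts. The 9 genes called in CXCR5-/- hearts alone were Cd84, Spi1, Adgre1, Fcgr1, Fcgr2b, Fcgr3, Cd14, Tlr2 and Lgmn. The median difference over the 39 genes was 0.76 in CXCR5-/- and 0.42 in WT hearts, beside -0.01 in CXCR5-/- and 0.01 in WT hearts over all genes. Standard errors in CXCR5-/- hearts lay between 0.09 and 0.22. Every AB array lay above every Sham array for 30 of the 39 genes in CXCR5-/- hearts, which held for 13.7% of all genes, and for 24 in WT hearts, which held for 9.39% of all genes.

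**Figure D1:**
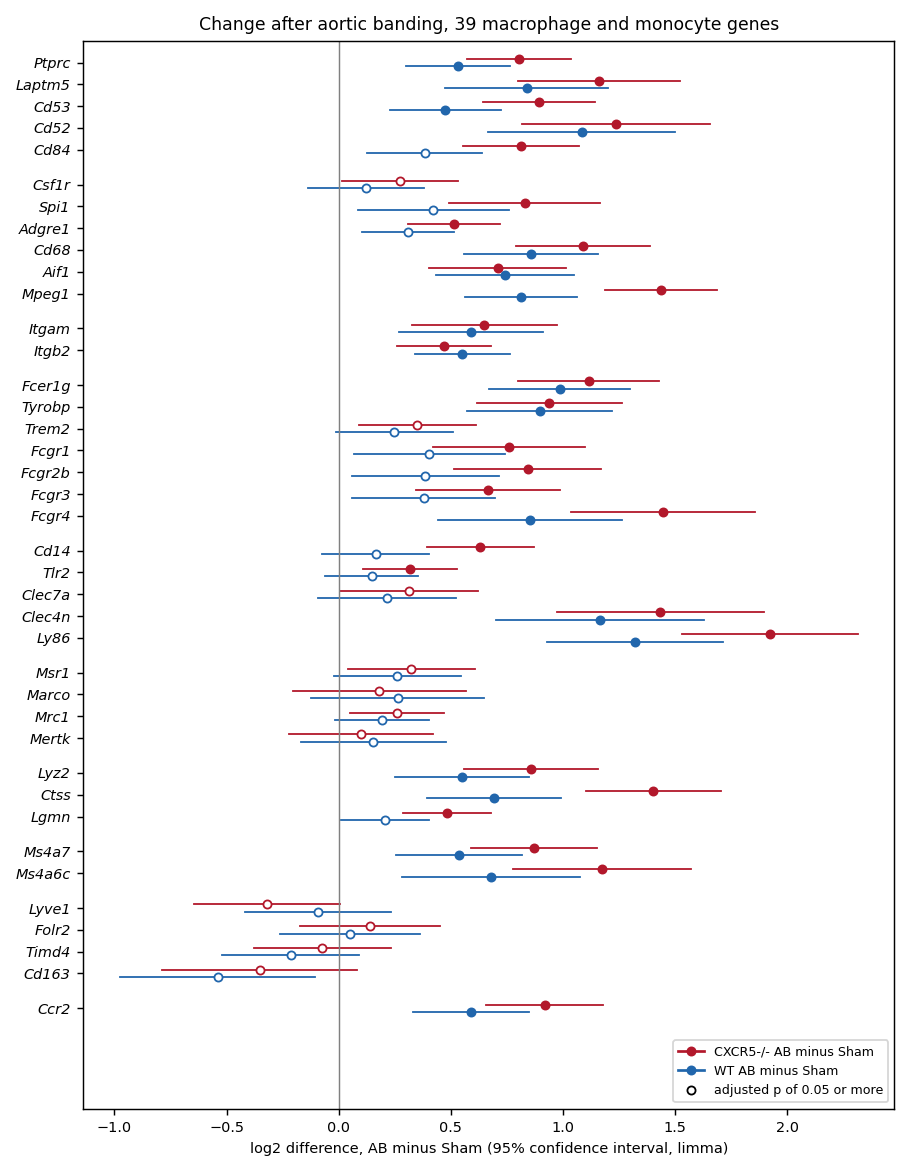
Log2 difference between AB and Sham (x axis) for the 39 genes, ordered by role, in CXCR5-/- hearts (red) and WT hearts (blue), with 95% confidence intervals from limma and open circles where the adjusted p was 0.05 or more. In CXCR5-/- hearts 28 genes and in WT hearts 19 genes have filled circles, all right of 0, and the 4 resident markers Lyve1, Folr2, Timd4 and Cd163 have open circles in both.

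Ccr2, the receptor by which monocytes follow CCL2 and related chemokines into tissue, read 4.84, 5.24, 4.77 and 5.21 in CXCR5-/- AB hearts, against 3.98, 4.17 and 4.14 in CXCR5-/- Sham hearts. It read 4.64, 4.63, 4.81 and 4.94 in WT AB hearts, against 4.28, 4.09 and 4.13 in WT Sham hearts. The AB and Sham arrays did not overlap in either genotype. Ccr2 was the only recruited marker, and its probe set was dim. Its mean level was at percentile 30.1 of all genes, just above the 30th percentile used to filter dim genes. The difference was 0.92 ± 0.12 in CXCR5-/- (SE, adjusted p = 7.35e-05) and 0.59 ± 0.12 in WT hearts (adjusted p = 0.00498). Under all 23 alternative settings Ccr2 passed in both genotypes, with adjusted p up to 0.0202 in CXCR5-/- and up to 0.0345 in WT hearts.

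None of the 4 resident markers passed the test in either genotype, and at an unadjusted p under 0.05 in limma there were 0 in CXCR5-/- and 1, Cd163, in WT hearts. Lyve1, a hyaluronan receptor, read 7.17, 7.60, 7.98 and 7.72 in CXCR5-/- AB hearts, against 7.98, 7.98 and 7.84 in CXCR5-/- Sham hearts. The WT values were 7.67, 7.40, 7.53 and 7.59 after AB, against 7.32, 7.79 and 7.81 after Sham. The groups overlapped in both genotypes, with differences of -0.32 (95% confidence interval -0.64 to 0.01) in CXCR5-/- and -0.09 (-0.42 to 0.23) in WT hearts. Lyve1 is also made by lymphatic endothelium, of whose 5 measured markers 2 rose in CXCR5-/- hearts (Pdpn by 1.25 and Mmrn1 by 0.49) and 1 in WT hearts (Pdpn by 0.81). Prox1, the transcription factor that defines lymphatic endothelium, differed by -0.22 in CXCR5-/- and -0.56 in WT hearts and did not pass, and the mean of the 5 markers was 6.69 to 6.81 in CXCR5-/- AB and 6.24 to 6.54 in CXCR5-/- Sham hearts, and 6.39 to 6.74 in WT AB and 6.32 to 6.51 in WT Sham hearts. Their part in the Lyve1 values was not tested.

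Folr2, the macrophage folate receptor, read 6.96, 7.37, 6.80 and 7.14 in CXCR5-/- AB hearts, against 7.08, 6.99 and 6.71 in CXCR5-/- Sham hearts. WT hearts gave 7.19, 7.41, 7.55 and 7.12 after AB, against 7.46, 6.99 and 7.36 after Sham. The groups overlapped throughout, and the differences of 0.14 (-0.17 to 0.45) in CXCR5-/- and 0.05 (-0.26 to 0.36) in WT hearts were within the spread between mice. Timd4, which binds phosphatidylserine on dying cells, read 4.78, 4.95, 5.02 and 5.52 in CXCR5-/- AB hearts, against 5.01, 5.09 and 5.33 in CXCR5-/- Sham hearts. Among WT mice the values were 4.80, 5.10, 5.23 and 5.05 after AB, against 5.33, 5.20 and 5.25 after Sham. Its differences were -0.07 (-0.38 to 0.23) in CXCR5-/- and -0.21 (-0.52 to 0.09) in WT hearts, again with overlapping groups.

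Cd163, the receptor that clears haemoglobin bound to haptoglobin, read 6.09, 6.65, 6.77 and 6.48 in CXCR5-/- AB hearts, against 6.72, 6.97 and 6.86 in CXCR5-/- Sham hearts. For WT hearts the arrays read 6.28, 6.43, 5.93 and 5.92 after AB, against 6.05, 7.05 and 6.95 after Sham. The overlap in WT hearts came from 1 array, WT Sham replicate 1. The differences were -0.35 (-0.79 to 0.08, adjusted p = 0.316) in CXCR5-/- and -0.54 (-0.97 to -0.10, adjusted p = 0.124) in WT hearts. The call of Cd163 in WT hearts changed with 1 array. Without WT Sham replicate 1 Cd163 was lower after AB by 0.86 (adjusted p = 0.00497), and the adjusted p over all 23 alternatives ran up to 0.460. With the arrays weighted by their estimated quality, Cd163 was lower by 0.76 (limma adjusted p = 0.00614). That fit kept WT Sham replicate 1 but leaned little on it. Its weight was 0.504, against 3.39 for WT Sham replicate 2 and 0.756 for WT Sham replicate 3. WT Sham replicate 1 was also 1 of the 3 with high Myl7, and without those 3 the adjusted p was 0.0125.

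**Figure D2:**
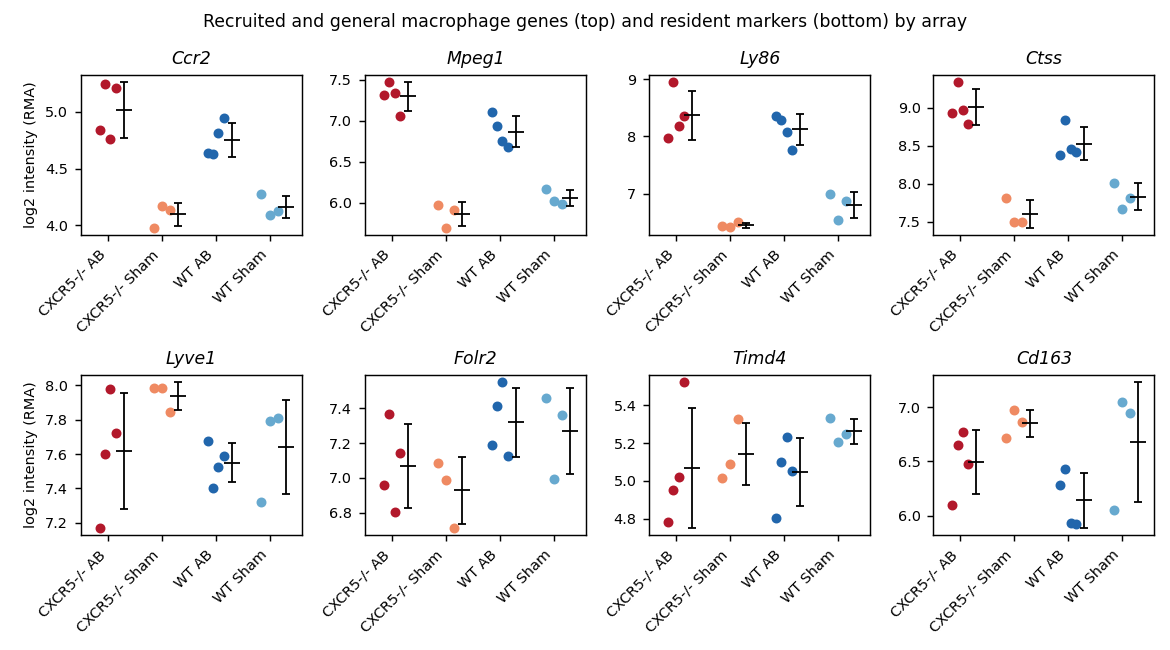
Log2 intensity (y axis, a separate scale for each gene) on each array (points) of CXCR5-/- AB, CXCR5-/- Sham, WT AB and WT Sham hearts, with the mean and SD of each group. The top row has Ccr2 and 3 general macrophage genes, Mpeg1, Ly86 and Ctss, each with the largest difference after AB in its role. General macrophage genes that did not pass, such as Csf1r and Mrc1, are not shown. The bottom row has the 4 resident markers. In the top row every AB array lies above every Sham array of its genotype, and in the bottom row the AB and Sham arrays of both genotypes overlap for Lyve1, Folr2, Timd4 and Cd163.

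Of the 4 scavenger and uptake receptors 0 passed in either genotype (limma), with 2 at an unadjusted p under 0.05 in CXCR5-/- and 0 in WT hearts. Mrc1, the mannose receptor, read 7.49, 7.71, 7.57 and 7.48 in CXCR5-/- AB hearts, against 7.18, 7.52 and 7.20 in CXCR5-/- Sham hearts. In WT hearts it read 7.57, 7.62, 7.57 and 7.65 after AB, against 7.28, 7.50 and 7.45 after Sham. Its WT groups did not overlap, yet the differences of 0.26 (0.05 to 0.47, adjusted p = 0.0962) in CXCR5-/- and 0.19 (-0.02 to 0.40, adjusted p = 0.281) in WT hearts did not pass. Msr1, scavenger receptor A, read 4.99, 5.58, 5.33 and 5.39 in CXCR5-/- AB hearts, against 5.0, 5.10 and 4.89 in CXCR5-/- Sham hearts. The WT values were 5.52, 5.33, 5.32 and 5.31 after AB, against 4.80, 5.32 and 5.21 after Sham. Its groups overlapped in both genotypes, with differences of 0.32 in CXCR5-/- and 0.26 in WT hearts. Marco, a scavenger receptor for bacteria, differed by 0.18 in CXCR5-/- and 0.26 in WT hearts, and Mertk, a receptor kinase for the uptake of dying cells, by 0.10 in CXCR5-/- and 0.15 in WT hearts. In CXCR5-/- hearts Mrc1 passed without CXCR5-/- Sham replicate 2 (0.37, adjusted p = 0.0292) and Msr1 passed without CXCR5-/- AB replicate 1 (0.43, adjusted p = 0.0333). With array weights and all arrays kept, both passed there, Mrc1 at 0.29 (limma adjusted p = 0.0161) and Msr1 at 0.36 (0.0206). Adjusted p over all alternatives ran up to 0.316 for Mrc1 and up to 0.346 for Msr1.

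Of the genes that mark macrophages as such, 5 of 6 rose in CXCR5-/- and 3 of 6 in WT hearts. Mpeg1, which encodes the pore-forming protein perforin-2, read 7.32, 7.48, 7.33 and 7.06 in CXCR5-/- AB hearts, against 5.97, 5.69 and 5.91 in CXCR5-/- Sham hearts. WT hearts gave 7.10, 6.93, 6.76 and 6.68 after AB, against 6.16, 6.02 and 5.98 after Sham. The AB and Sham arrays of each genotype lay apart, by 2.71-fold on average in CXCR5-/- (log2 1.44 ± 0.12, adjusted p = 4.91e-07) and 1.76-fold in WT hearts (0.81 ± 0.12, adjusted p = 0.000279). Cd68, a glycoprotein of the lysosomal membrane, rose by 1.09 in CXCR5-/- and 0.86 in WT hearts, and Aif1, the actin-binding protein IBA1, by 0.71 in CXCR5-/- and 0.74 in WT hearts. Adgre1, which encodes the F4/80 antigen, and Spi1, which encodes the lineage transcription factor PU.1, rose in CXCR5-/- hearts, Adgre1 by 0.51 and Spi1 by 0.83. In WT hearts Adgre1 differed by 0.31 (adjusted p = 0.0558, and 0.0114 to 0.200 over 23 alternatives, of which 4 passed) and Spi1 by 0.42 (adjusted p = 0.118, and 0.0413 to 0.305, of which 1 passed). Without the 3 Sham arrays with high Myl7 the calls in CXCR5-/- hearts were lost for Spi1 (0.82, adjusted p = 0.109), Adgre1 (0.40, adjusted p = 0.163) and Aif1 (0.57, adjusted p = 0.166). Csf1r, the receptor for the growth factor CSF1 on which macrophages depend, did not pass in either genotype, with differences of 0.28 (0.02 to 0.53) in CXCR5-/- and 0.12 (-0.14 to 0.38) in WT hearts. It passed in CXCR5-/- hearts with array weights (adjusted p = 0.0287, and up to 0.443 over all alternatives). Its arrays ran from 7.71 to 7.84 in CXCR5-/- AB and 7.43 to 7.63 in CXCR5-/- Sham hearts, and from 7.57 to 8.12 in WT AB and 7.52 to 7.84 in WT Sham hearts.

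Of the general leukocyte membrane genes, 5 of 5 rose in CXCR5-/- and 4 of 5 in WT hearts. Cd52, a small glycosylphosphatidylinositol-anchored antigen, read 6.66, 6.85, 6.02 and 6.11 in CXCR5-/- AB hearts, against 5.42, 4.95 and 5.16 in CXCR5-/- Sham hearts. Among WT mice the values were 6.85, 6.23, 6.49 and 6.28 after AB, against 5.63, 5.08 and 5.43 after Sham. The groups did not overlap, and the differences were 1.24 ± 0.20 in CXCR5-/- and 1.08 ± 0.20 in WT hearts. Cd53, a tetraspanin of leukocytes, read 7.14, 7.41, 7.16 and 7.26 in CXCR5-/- AB hearts, against 6.39, 6.28 and 6.38 in CXCR5-/- Sham hearts. For WT hearts the arrays read 6.59, 7.06, 7.10 and 6.93 after AB, against 6.60, 6.42 and 6.31 after Sham, so that WT AB replicate 1 and WT Sham replicate 1 overlapped. Its differences were 0.89 ± 0.12 (adjusted p = 6.32e-05) in CXCR5-/- and 0.48 ± 0.12 (adjusted p = 0.0155) in WT hearts. The call in WT hearts was lost without WT Sham replicate 2 (adjusted p = 0.0649) or WT Sham replicate 3 (0.0987), and adjusted p over all alternatives ran from 0.00196 to 0.0987. Ptprc, the CD45 phosphatase of all leukocytes, rose by 0.80 in CXCR5-/- and 0.53 in WT hearts, and Laptm5, a lysosomal membrane protein of blood cells, by 1.16 in CXCR5-/- and 0.84 in WT hearts. Cd84, an adhesion receptor of the SLAM family, rose by 0.81 in CXCR5-/- hearts, and its difference in WT hearts was 0.38 (adjusted p = 0.0601). Cd84 passed in WT hearts under 6 of 23 alternatives, among them array weights, the filter on dim genes and the replicate block, with adjusted p from 0.00983 to 0.261.

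These membrane genes, and several of the Fc receptors and pattern receptors, are shared by other leukocytes. The counts of markers below stand beside 8.28% of all genes that were higher after AB in CXCR5-/- and 5.1% in WT hearts. Of 10 neutrophil markers 0 rose in CXCR5-/- (1 at an unadjusted p under 0.05 in limma) and 1 in WT hearts (Csf3r, by 0.49), and their mean was 3.81 to 3.91 in CXCR5-/- AB and 3.75 to 3.88 in CXCR5-/- Sham hearts, and 3.81 to 3.98 in WT AB and 3.62 to 3.88 in WT Sham hearts. None of 7 B cell, 8 T and NK cell and 7 dendritic cell markers passed in either direction (limma). At an unadjusted p under 0.05 there were 1 B cell, 1 T and NK cell and 1 dendritic cell marker in CXCR5-/- hearts and 3 B cell, 1 T and NK cell and 0 dendritic cell markers in WT hearts, all higher after AB, where 25.3% of all genes in CXCR5-/- and 21.1% in WT hearts had such a p. Of 7 mast cell markers 1, the protease gene Cpa3, rose in CXCR5-/- hearts (by 0.61), and 0 in WT hearts, with 4 in CXCR5-/- and 0 in WT hearts at an unadjusted p under 0.05. Of 7 fibroblast markers 6 rose in CXCR5-/- and 3 in WT hearts, with means of 9.36 to 9.62 in CXCR5-/- AB and 8.24 to 8.52 in CXCR5-/- Sham hearts, and of 9.06 to 9.64 in WT AB and 8.28 to 8.35 in WT Sham hearts. The part of any of these cells in the macrophage values was not tested.

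Both β2 integrin genes rose in both genotypes. Itgb2, the common β2 chain, read 6.07, 6.30, 6.27 and 6.02 in CXCR5-/- AB hearts, against 5.74, 5.72 and 5.63 in CXCR5-/- Sham hearts. In WT hearts it read 6.32, 5.99, 6.20 and 6.29 after AB, against 5.59, 5.69 and 5.67 after Sham. The differences were 0.47 ± 0.10 in CXCR5-/- and 0.55 ± 0.10 in WT hearts, with no overlap. Itgam, the CD11b chain that pairs with it to form the complement receptor Mac-1, read 5.94, 6.50, 6.16 and 6.03 in CXCR5-/- AB hearts, against 5.49, 5.67 and 5.37 in CXCR5-/- Sham hearts. The WT values were 6.49, 5.81, 6.10 and 6.31 after AB, against 5.52, 5.48 and 5.76 after Sham. The differences were 0.65 ± 0.15 (adjusted p = 0.00729) in CXCR5-/- and 0.59 ± 0.15 (adjusted p = 0.0195) in WT hearts. The WT call of Itgam was lost when WT AB replicate 1 (adjusted p = 0.0650), WT Sham replicate 1 (0.0573) or WT Sham replicate 2 (0.0992) was left out, within a range of 0.00483 to 0.0992 over all alternatives. Without the 3 Sham arrays with high Myl7 the adjusted p was 0.0850 for Itgam in WT hearts, and in CXCR5-/- hearts it was 0.0923 for Itgam (difference 0.79) and 0.0753 for Itgb2 (0.54).

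Fc receptors bind antibody on particles and immune complexes, and signal through adaptors that carry an activation motif (ITAM). Of the 7 genes of this kind, 6 rose in CXCR5-/- and 3 in WT hearts. Fcer1g, the γ chain that most activating Fc receptors need, read 8.15, 8.68, 8.40 and 8.36 in CXCR5-/- AB hearts, against 7.37, 7.24 and 7.23 in CXCR5-/- Sham hearts. WT hearts gave 8.84, 8.12, 8.36 and 8.18 after AB, against 7.37, 7.31 and 7.50 after Sham. The groups lay apart in both genotypes, by 1.11 ± 0.15 in CXCR5-/- and 0.98 ± 0.15 in WT hearts. Tyrobp, the DAP12 adaptor, rose by 0.94 in CXCR5-/- and 0.90 in WT hearts. Fcgr4, an activating receptor of mouse monocytes and macrophages, read 5.54, 6.63, 6.12 and 5.79 in CXCR5-/- AB hearts, against 4.71, 4.41 and 4.61 in CXCR5-/- Sham hearts. Among WT mice the values were 5.63, 5.50, 5.34 and 4.99 after AB, against 4.62, 4.43 and 4.49 after Sham. Its differences were 1.45 ± 0.19 (2.73-fold, adjusted p = 7.54e-05) in CXCR5-/- and 0.85 ± 0.19 (1.80-fold, adjusted p = 0.00931) in WT hearts.

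The other Fc receptor genes passed in CXCR5-/- hearts and not in WT hearts. Fcgr1, the high-affinity receptor, rose there by 0.76, Fcgr2b, the inhibitory receptor, by 0.84, and Fcgr3, a low-affinity activating receptor, by 0.67. In WT hearts their differences were 0.40, 0.39 and 0.38 in that order, with adjusted p values of 0.142, 0.149 and 0.146. These WT results depended on the fit: with array weights Fcgr1 (adjusted p = 0.0127, up to 0.418 over all alternatives) and Fcgr3 (0.0176, up to 0.439) passed, and with the replicate block Fcgr2b (0.0339, up to 0.344) and Fcgr3 (0.0340) passed. In CXCR5-/- hearts Fcgr3 was lost without the 3 Sham arrays with high Myl7 (0.74, adjusted p = 0.118). Trem2, the DAP12-coupled lipid receptor, differed by 0.35 (0.09 to 0.61, adjusted p = 0.0716) in CXCR5-/- and 0.25 (-0.01 to 0.51, adjusted p = 0.268) in WT hearts. Trem2 passed in CXCR5-/- hearts under 5 of 23 alternatives (adjusted p 0.0162 to 0.353), array weights, the replicate block and the fit of the compared groups alone among them, and in WT hearts under 1 of 23 (0.0476 to 0.757). Fcgr2b, Fcgr3 and Fcgr4 are related in sequence, and how far their probe sets detect each other's transcripts was not tested.

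Among the receptors for microbial patterns, 4 of 5 rose in CXCR5-/- and 2 of 5 in WT hearts. Ly86, which encodes MD-1, the partner of the Toll-like receptor homologue RP105, showed the largest increase of the 39 genes in both genotypes. It read 7.98, 8.96, 8.19 and 8.36 in CXCR5-/- AB hearts, against 6.43, 6.41 and 6.49 in CXCR5-/- Sham hearts. For WT hearts the arrays read 8.36, 8.28, 8.08 and 7.76 after AB, against 6.99, 6.54 and 6.87 after Sham. No AB array overlapped a Sham array of its genotype, and the differences were 1.92 ± 0.19 (3.79-fold, adjusted p = 2.85e-06) in CXCR5-/- and 1.32 ± 0.19 (2.50-fold, adjusted p = 0.000202) in WT hearts. Clec4n, the fungal receptor dectin-2, rose by 1.43 in CXCR5-/- and 1.16 in WT hearts. Cd14, the co-receptor for lipopolysaccharide, rose by 0.63 in CXCR5-/- hearts and differed by 0.16 (-0.07 to 0.40) in WT hearts. Tlr2, the receptor for bacterial lipopeptides, was at the edge of the test in CXCR5-/- hearts (0.32, adjusted p = 0.0380). It was lost in 9 of 23 alternatives, with adjusted p from 0.00703 to 0.294: under quantile normalization, median centring and the fit of the compared groups alone, without CXCR5-/- AB replicate 2 or 3, without any single CXCR5-/- Sham array, and without the 3 Sham arrays with high Myl7. In WT hearts Tlr2 differed by 0.15. Clec7a, the β-glucan receptor dectin-1, differed by 0.31 in CXCR5-/- (adjusted p = 0.185) and 0.21 in WT hearts (adjusted p = 0.450).

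All 3 lysosomal genes rose in CXCR5-/- hearts and 2 of 3 in WT hearts. Ctss, the protease cathepsin S that prepares antigens for presentation, read 8.93, 9.34, 8.97 and 8.79 in CXCR5-/- AB hearts, against 7.81, 7.50 and 7.50 in CXCR5-/- Sham hearts. In WT hearts it read 8.38, 8.85, 8.47 and 8.41 after AB, against 8.02, 7.66 and 7.82 after Sham. The groups lay apart in both genotypes, by 1.40 ± 0.14 (adjusted p = 4.40e-06) in CXCR5-/- and 0.69 ± 0.14 (adjusted p = 0.00427) in WT hearts. Lyz2, which encodes lysozyme M, rose by 0.86 in CXCR5-/- and 0.55 in WT hearts, and Lgmn, which encodes the protease legumain, rose by 0.48 in CXCR5-/- hearts and differed by 0.21 (adjusted p = 0.212) in WT hearts. The WT call of Lyz2 was lost without WT AB replicate 3 (adjusted p = 0.0634), WT Sham replicate 2 (0.122) or WT Sham replicate 3 (0.0781), in a range of 0.00113 to 0.122 over all alternatives. In CXCR5-/- hearts Lgmn was lost without the 3 Sham arrays with high Myl7 (0.46, adjusted p = 0.0953).

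The 2 Ms4a genes, which encode related membrane proteins with several spans, rose in both genotypes. Ms4a7 read 4.99, 5.23, 4.49 and 4.69 in CXCR5-/- AB hearts, against 3.99, 4.01 and 3.94 in CXCR5-/- Sham hearts, and in WT hearts 4.83, 4.58, 4.65 and 4.60 after AB, against 4.05, 4.19 and 4.15 after Sham. Ms4a6c read 7.61, 8.15, 8.04 and 7.71 in CXCR5-/- AB hearts, against 6.97, 6.63 and 6.51 in CXCR5-/- Sham hearts, and in WT hearts 7.39, 7.63, 7.02 and 6.76 after AB, against 6.22, 6.67 and 6.67 after Sham. Neither gene overlapped between AB and Sham. For Ms4a7 the difference was 0.87 ± 0.13 in CXCR5-/- and 0.54 ± 0.13 (adjusted p = 0.0155) in WT hearts, and for Ms4a6c it was 1.17 ± 0.19 in CXCR5-/- and 0.68 ± 0.19 (adjusted p = 0.0293) in WT hearts. In WT hearts the call of Ms4a7 was lost without WT AB replicate 1, WT Sham replicate 1 or WT Sham replicate 3, and that of Ms4a6c without WT AB replicate 1 or 2 or any single WT Sham array, and also in the fit of the compared groups alone. Both were lost without the 3 Sham arrays with high Myl7, where adjusted p was highest over all alternatives, at 0.0863 for Ms4a7 and 0.147 for Ms4a6c.

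**Figure D3:**
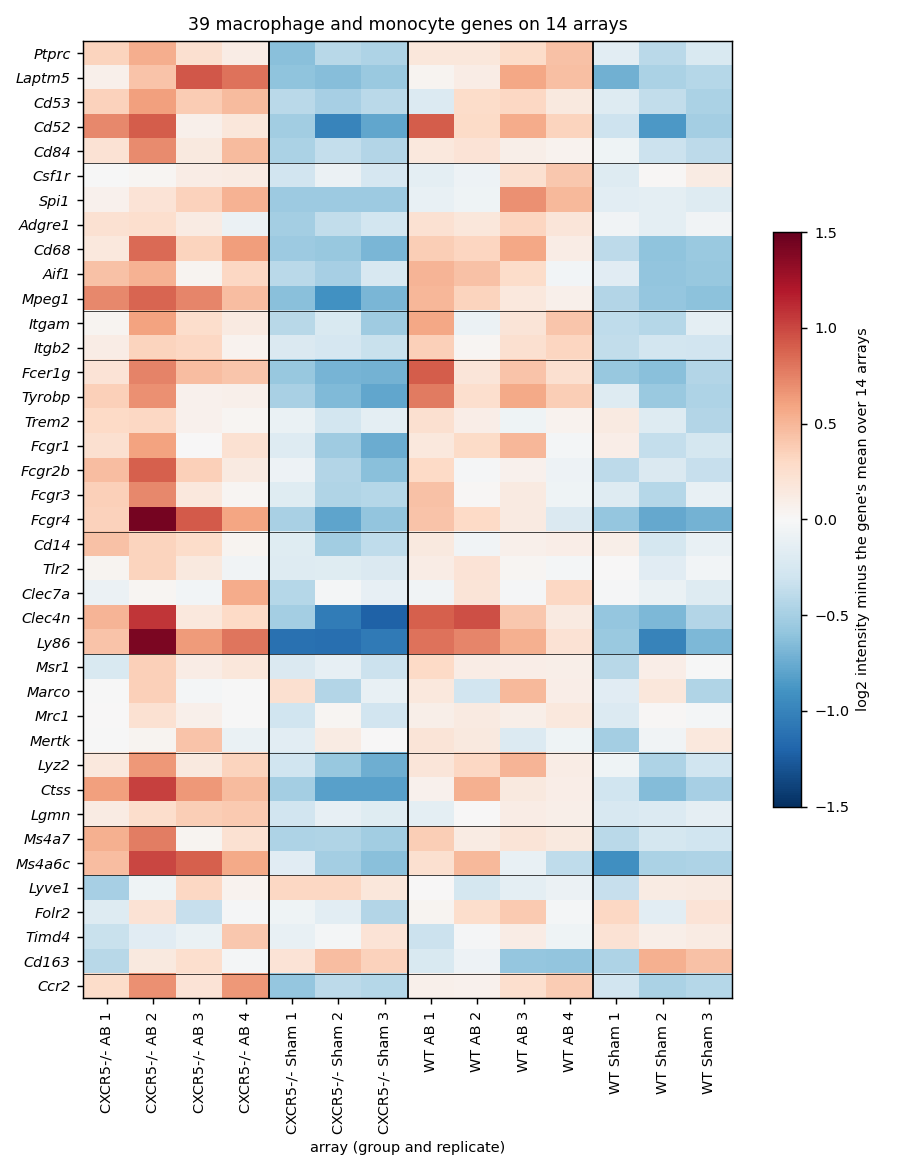
Log2 intensity of the 39 genes (rows, by role, separated by lines) on the 14 arrays (columns), less each gene's mean over all arrays, with red above and blue below that mean. The AB columns of both genotypes are red for most rows, CXCR5-/- AB replicate 2 most often the reddest of its group, and the rows of Lyve1, Folr2, Timd4 and Cd163 do not follow this pattern.

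Mice of a group differed in how far these genes rose. Of the 28 genes called in CXCR5-/- hearts, 24 were highest on CXCR5-/- AB replicate 2 among the 4 arrays of that group, and their mean was 7.22 there and 6.85, 6.86 and 6.86 on replicates 1, 3 and 4. The same array stood apart for Alas2, the haem synthesis gene of red blood cell precursors, with 8.70 against 7.67, 7.55 and 7.28, and for the mean of 7 mast cell markers, with 4.64 against 4.39, 4.36 and 4.35. The part of blood or mast cells in the macrophage values was not tested. In CXCR5-/- Sham hearts the mean of the same 28 genes was 6.09, 5.97 and 5.96. The mean of all 39 genes was 6.70, 6.63, 6.68 and 6.57 on the WT AB arrays and 6.20, 6.14 and 6.20 on the WT Sham arrays. The mean of the 4 resident markers was 6.25 to 6.72 in CXCR5-/- AB and 6.69 to 6.76 in CXCR5-/- Sham hearts, and 6.42 to 6.59 in WT AB and 6.54 to 6.84 in WT Sham hearts. Without CXCR5-/- AB replicate 2, 27 of the 39 genes were called in CXCR5-/- hearts.

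Spi1 rose in CXCR5-/- hearts, and PU.1, its product, binds purine-rich DNA with a GGAA core in macrophage promoters, alone or together with IRF proteins. The promoters of the members were therefore read in the RefSeq promoter windows of GRCm38.p6, from 250 bases before to 50 after the gene start, which held 29 of the 39 genes. On either strand, the PU.1 motif GAGGAAGT was in a window of 3 of these 29 genes and of 3.69% of all 27025 genes in the windows. The composite PU.1-IRF motif, GGAA and GAAA with any 2 bases between them, was in 5 of 29 genes (Cd68, Clec7a, Fcgr2b, Folr2 and Timd4), and in 3.16% of all genes. The 2 motifs can share their GGAA core, and a match is a run of letters and not a binding site. The stretches below are shown because 3 of these genes, Fcgr4, Ctss and Cd53, rose after AB in both genotypes, and the other two, Timd4 and Folr2, are resident markers that did not pass. Each has 80 bases, 5′ to 3′ on the strand of the gene, with the match in capitals. The PU.1 motif stands there as its reverse complement.
Fcgr4 (chr1:171018866-171018945, plus strand): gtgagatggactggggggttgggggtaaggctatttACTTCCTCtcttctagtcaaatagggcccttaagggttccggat
Ctss (chr3:95526726-95526805, plus strand): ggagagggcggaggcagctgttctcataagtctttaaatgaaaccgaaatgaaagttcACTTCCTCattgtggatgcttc
Cd53 (chr3:106790130-106790209, minus strand): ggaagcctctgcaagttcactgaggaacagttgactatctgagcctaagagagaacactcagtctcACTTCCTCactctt
Timd4 (chr11:46810693-46810772, plus strand): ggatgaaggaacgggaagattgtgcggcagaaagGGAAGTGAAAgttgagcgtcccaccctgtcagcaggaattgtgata
Folr2 (chr7:101857281-101857360, minus strand): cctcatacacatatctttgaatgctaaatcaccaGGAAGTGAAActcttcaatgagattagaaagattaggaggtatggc
In Fcgr4 the match lay 17 to 24 bases before the start, in Ctss it ran across the start from 2 bases before it, and in Cd53 it lay 6 to 13 bases after it. In Timd4 and Folr2 the composite match read the same letters, 63 to 72 and 127 to 136 bases before the start in that order. Of the 5 genes with the composite match, Cd68 was called in both genotypes, Fcgr2b in CXCR5-/- hearts alone, and Clec7a, Folr2 and Timd4 in neither.

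None of the 39 genes passed the test between genotypes, after AB or after Sham. After AB, 0 were higher and 0 lower in hearts labelled CXCR5-/- than in WT hearts (limma adjusted p under 0.05), where 0.0251% of all genes were higher and 0.0201% lower. At an unadjusted p under 0.05 there were 9 of 39, beside 5.94% of all genes, and 28 of the 39 had a positive difference, beside 49.3% of all genes. The median difference was 0.05. Cd53 and Lgmn lay above every WT AB array on every CXCR5-/- AB array, an order found for 1.63% of all genes, and no member lay below on every array, as 1.49% of all genes did. The Cd53 arrays were given above, and the difference was 0.32 (95% confidence interval 0.09 to 0.55, adjusted p = 0.534). Lgmn read 9.93, 10.07, 10.17 and 10.20 in CXCR5-/- AB hearts and 9.66, 9.81, 9.91 and 9.89 in WT AB hearts, with a difference of 0.27 (0.09 to 0.46, adjusted p = 0.490).

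The widest differences after AB were those of Ms4a6c at 0.68 (0.31 to 1.04, adjusted p = 0.275), Fcgr4 at 0.66 (0.28 to 1.04, adjusted p = 0.325), Ctss at 0.48 (0.21 to 0.76, adjusted p = 0.320) and Mpeg1 at 0.43 (0.20 to 0.66, adjusted p = 0.264). For each of these 4 the 4 CXCR5-/- AB arrays and the 4 WT AB arrays overlapped. Ccr2 differed by 0.26 (0.02 to 0.50, adjusted p = 0.790). The resident markers differed by 0.07 (Lyve1, -0.23 to 0.37), -0.25 (Folr2, -0.54 to 0.04), 0.02 (Timd4, -0.26 to 0.30) and 0.36 (Cd163, -0.05 to 0.76).

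After Sham, again 0 of 39 were higher and 0 lower in hearts labelled CXCR5-/-, where 0.0201% of all genes were higher and 0.0201% lower. At an unadjusted p under 0.05 there were 4, beside 2.38% of all genes. Here 31 of the 39 had a negative difference and 8 a positive one, where 52.4% of all genes had a positive one, and the median was -0.11. Every CXCR5-/- Sham array lay below every WT Sham array for 7 genes (Ptprc, Spi1, Adgre1, Mpeg1, Tlr2, Ly86 and Ms4a7), an order found for 3.57% of all genes. Every one lay above for Lyve1 alone, as for 3.28% of all genes. Adgre1 read 5.95, 6.10 and 6.19 in CXCR5-/- Sham hearts and 6.41, 6.32 and 6.41 in WT Sham hearts, with a difference of -0.30 (-0.52 to -0.08, unadjusted p = 0.00994 and adjusted p above 0.99 in limma). Spi1 read 5.38, 5.37 and 5.38 in CXCR5-/- Sham hearts and 5.76, 5.77 and 5.72 in WT Sham hearts, with a difference of -0.37 (-0.73 to -0.01). Folr2 differed by -0.34 (-0.67 to -0.01), Lyve1 by 0.30 (-0.05 to 0.64), and Ccr2 by -0.07 (-0.35 to 0.21).

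**Figure D4:**
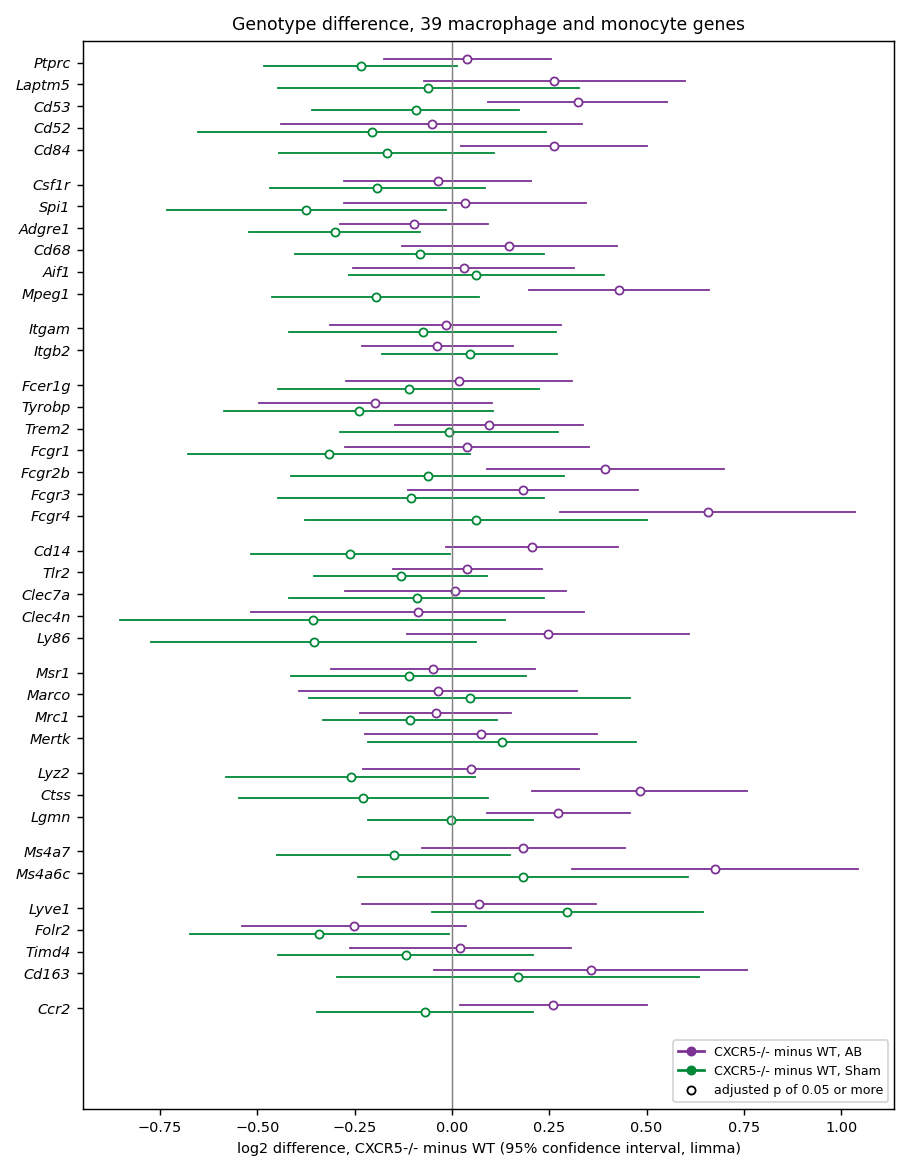
Log2 difference between hearts labelled CXCR5-/- and WT hearts (x axis) for the 39 genes by role, after AB (purple) and after Sham (green), with 95% confidence intervals from limma and open circles where the adjusted p was 0.05 or more. All circles are open, and 28 of 39 genes lie right of 0 after AB and 8 of 39 after Sham.

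The response to AB was larger in CXCR5-/- than in WT hearts for 34 of the 39 genes, but the difference of the responses passed for none of them. This comparison shares its arrays with the comparisons above, so the count of 34 is no separate evidence. A positive difference was found for 48.0% of all genes, and 0% of all genes passed as higher and 0% as lower. At an unadjusted p under 0.05 there were 7 of 39 members in limma, beside 2.88% of all genes, and the median was 0.23. The response was larger in CXCR5-/- hearts by 0.71 for Ctss (0.29 to 1.13), by 0.63 for Mpeg1 (0.27 to 0.98), by 0.60 for Ly86 (0.05 to 1.15) and by 0.59 for Fcgr4 (0.01 to 1.18), all with an adjusted p above 0.99. For Ccr2 the difference of responses was 0.33 (-0.04 to 0.70), and for the β2 integrin genes Itgb2 and Itgam it was -0.08 (-0.38 to 0.21) and 0.06 (-0.40 to 0.51). For the resident markers it was -0.23 (Lyve1, -0.69 to 0.23), 0.09 (Folr2, -0.35 to 0.53), 0.14 (Timd4, -0.29 to 0.57) and 0.19 (Cd163, -0.43 to 0.80).

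Genes that act with the members were read in lists of their own. The counts in these lists stand beside the shares of all genes after AB. In CXCR5-/- hearts 8.28% of all genes were higher and 5.86% lower, and in WT hearts 5.1% were higher and 4.22% lower. Of 11 ligands and growth factors for monocytes and macrophages, 3 rose in CXCR5-/- and 4 in WT hearts. Ccl12, a mouse chemokine that binds Ccr2, rose by 0.68 in CXCR5-/- and 1.01 in WT hearts. Ccl2, whose product is also a ligand of Ccr2, and Ccl7 were measured in this list and did not pass in either genotype. Cx3cl1, the ligand of Cx3cr1, rose by 0.91 in CXCR5-/- and 0.75 in WT hearts, and Tgfb1, a cytokine that macrophages also produce, by 1.0 in CXCR5-/- and 0.79 in WT hearts. Csf1, the ligand of Csf1r, rose by 0.47 in WT hearts (adjusted p = 0.0177) and differed by 0.23 in CXCR5-/- hearts (adjusted p = 0.239). Of 24 further receptors of these cells 14 rose in CXCR5-/- and 9 in WT hearts. They included Vsig4, a complement receptor of resident macrophages (1.48 in CXCR5-/- and 1.28 in WT hearts). Lilr4b rose by 1.07 in CXCR5-/- and 0.67 in WT hearts, and the inhibitory receptor Lilrb4a by 0.93 in CXCR5-/- and 0.61 in WT hearts. Tlr13, a receptor for bacterial RNA, rose by 0.96 in CXCR5-/- and 0.76 in WT hearts. Vsig4 thus rose in both genotypes while the 4 resident markers did not pass.

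Below the Fc receptors, ITAM adaptors and integrins, 9 of 17 measured signalling genes rose in CXCR5-/- and 6 of 17 in WT hearts. Plcg2, a phospholipase downstream of these adaptors, rose by 0.78 in CXCR5-/- and 0.48 in WT hearts, and Cybb, the catalytic subunit of the phagocyte oxidase, rose by 1.02 in CXCR5-/- hearts and differed by 0.42 (adjusted p = 0.180) in WT hearts. Rac2, a small GTPase of blood cells, rose by 0.54 in CXCR5-/- and 0.44 in WT hearts, and Vav1, its exchange factor, by 0.41 in CXCR5-/- and 0.50 in WT hearts. Of 10 lineage transcription factors 2 rose in CXCR5-/- and 3 in WT hearts. Runx1 rose by 0.89 in both, Irf5 by 0.39 in CXCR5-/- and 0.41 in WT hearts, and Irf8, which directs monocyte development, by 0.35 in WT hearts and differed by 0.20 in CXCR5-/- hearts. Of 14 genes of the lysosome and of lipid handling 9 rose and 1 fell in CXCR5-/- hearts and 5 rose and 0 fell in WT hearts. Ctsk, the collagen-degrading protease cathepsin K, rose by 1.82 in CXCR5-/- and 1.43 in WT hearts, Ctsz, cathepsin Z, by 1.24 in CXCR5-/- and 0.98 in WT hearts, Lgals3, galectin-3, by 1.08 in CXCR5-/- and 1.19 in WT hearts, and Cd9, a tetraspanin, by 0.99 in CXCR5-/- and 0.89 in WT hearts. These 4 are also made by other cells of the heart.

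None of the genes that label activation states passed as higher after AB (limma). At an unadjusted p under 0.05 in either direction there were 6 of 13 in CXCR5-/- and 7 of 13 in WT hearts. Of these, 4 in CXCR5-/- and 5 in WT hearts were higher after AB. Such a p was found for 25.3% of all genes in CXCR5-/- and 21.1% in WT hearts. Of 13 measured, 2 were lower in CXCR5-/- and 1 in WT hearts, where 5.86% of all genes in CXCR5-/- and 4.22% in WT hearts were lower. Slc40a1, the iron exporter ferroportin, read 5.85, 5.68, 6.79 and 6.57 in CXCR5-/- AB hearts, against 7.25, 7.52 and 7.22 in CXCR5-/- Sham hearts, a fall of 1.11 on the log2 scale (difference -1.11, adjusted p = 0.00893). The WT values were 5.62, 6.77, 6.67 and 6.80 after AB, against 7.06, 7.37 and 7.39 after Sham (-0.80, adjusted p = 0.0718). No AB array reached a Sham array in either genotype. Ccl24, the chemokine eotaxin-2, was lower in CXCR5-/- (-0.38) and WT hearts (-0.35, adjusted p = 0.0433). Of 11 measured genes of monocytes and circulating cells, 6 rose in each genotype, among them Fn1, fibronectin (1.70 in CXCR5-/- and 1.53 in WT hearts), Vcan, versican (1.60 in CXCR5-/- and 1.42 in WT hearts), S100a6, a calcium-binding protein (1.0 in CXCR5-/- and 0.95 in WT hearts), and Chil1, a chitinase-like protein (0.88 in CXCR5-/- and 0.94 in WT hearts). Fn1 and Vcan are also made by fibroblasts, whose markers rose as given above.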

How the data were processed

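Left ventricular RNA of 14 mice was measured with Affymetrix mouse gene ST 1.0 arrays. The log2 value of each probe set, as deposited, was made by the authors with RMA, whose version these sources do not state, and was used unchanged (range 0.742 to 13.5). For RNA isolation the methods name the SV total RNA kit and the labels an RNeasy kit. No per-sample column was left out, and the number of arrays limits the precision.

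Of 34760 probe sets, 21640 had 1 gene symbol, 1321 several and 11799 none; 21553 of the first were matched to the RefSeq table of GRCm38.p6. Where a gene had more than 1 such probe set (954 of 19937 genes), the one with the highest mean was taken. Groups, taken from the sample titles, were compared with limma 3.58.1 in R 4.3.3 (lmFit and eBayes, 4 group means in 1 fit, 10 residual and 7.13 prior degrees of freedom), with Benjamini-Hochberg adjustment of p over the 19937 genes and a threshold of 0.05. Significance analysis of microarrays, the test of the study's methods, is described there with a limit on the false discovery rate but without its permutation settings, and limma was used in its place. The model was tested on simulated data. The members and gene lists were chosen with earlier results of these data known. Genes given with every array are the resident and recruited markers and, in each role, the gene with the smallest p and the one with the largest difference after AB; Csf1r, Lgmn, Adgre1, Spi1 and Slc40a1 were added after their values were seen. Partner genes are up to 4 of a list that passed.

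Alternatives were a variance trend with a robust prior, array weights, a filter at the 30th percentile of mean level, quantile normalization, median centring, the mean of all probe sets of a gene, a fit of the compared groups alone, the replicate number as a block, each array left out in turn and, added after the data were seen, the 3 Sham arrays with the highest Myl7 left out. The estimated array weights were 3.91 for CXCR5-/- Sham replicate 3 and 3.39 for WT Sham replicate 2. All other arrays had weights from 0.504 to 1.25, so each weighted Sham mean rested mostly on a single array. Replicate numbers recur between groups. After AB, same-numbered CXCR5-/- and WT arrays deviated together from their group means in all 4 pairs (r 0.125 to 0.220 across genes), which comes from these data and not from the labels, and 1 of the 4 correlated best with its own number. Between the Sham groups r was 0.451, 0.0260 and 0.169 for replicates 1, 2 and 3. Both replicate 1 Sham arrays were among the 3 with high Myl7. Between AB and Sham arrays r ran from -0.109 to 0.135 in CXCR5-/- and from -0.0625 to 0.264 in WT hearts.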

Additional observations from a re-analysis of the deposited data

Results flagged for a closer look

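In the 78 sets of 4 AB arrays tested (39 genes in 2 genotypes), 2 arrays stood far from the other 3 of their group, where chance marks about 1 set in 20. Marco read 5.24 on CXCR5-/- AB replicate 2, against 4.85 to 4.87 on the other CXCR5-/- AB arrays. Msr1 read 5.52 on WT AB replicate 1, against 5.31 to 5.33 on the other WT AB arrays. Neither gene passed between AB and Sham in either genotype.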

How the results depend on the processing

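Over the alternatives that keep all 14 arrays or all arrays compared, 27 to 32 of the 39 genes were higher after AB in CXCR5-/- hearts and 17 to 23 in WT hearts. With single arrays left out, 27 to 29 were higher in CXCR5-/- and 15 to 20 in WT hearts, and 0 to 1 were lower in WT hearts. The count of genes lower after AB in WT hearts was 1 with array weights and 1 without the 3 Sham arrays with the highest Myl7; in both cases the gene was Cd163. Without those 3 arrays, 20 genes were higher in CXCR5-/- and 16 in WT hearts. That setting leaves 1 CXCR5-/- Sham array, assumed to vary like the other groups, and the 8 calls lost in CXCR5-/- hearts (Spi1, Adgre1, Aif1, Itgam, Itgb2, Fcgr3, Tlr2 and Lgmn) were lost with fewer arrays, at differences of 0.34 to 0.82. With the replicate number as a block, 29 genes were higher in CXCR5-/- and 23 in WT hearts, 0 differed between genotypes after AB, after Sham or in response, and no call was lost. Between genotypes and for the difference of responses the count was 0 under every alternative. No called difference changed sign. Of the calls, 20 of 28 in CXCR5-/- and 14 of 19 in WT hearts held under every alternative. The filter on dim genes left out Ms4a7. With 3 or 4 arrays a group, small differences between genotypes cannot be resolved, and the largest of the 39 genes after AB, 0.68, did not pass either.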
